A study of Mus musculus with 18 samples.

Results

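Border and centre Lgr5+ cells of small intestinal (SI) crypts were compared in 6 of the 18 libraries of the series, 3 of border cells and 3 of centre cells. The members were taken from the sample labels: SI libraries of medium Lgr5-GFP, which the study takes as border cells at the upper edge of the stem cell zone, against SI libraries of high Lgr5-GFP, taken as centre cells at the crypt bottom. All 6 came from untreated C57BL/6 mice of genotype Lgr5_eGFP_Iris_creERT2, a knock-in in which the Lgr5 locus drives GFP and a tamoxifen-inducible Cre, aged 8 to 20 weeks after birth by the labels, while the methods of the study allow older mice. Cells were sorted as EPCAM-positive cells by GFP level, so position in the crypt was inferred from GFP and not measured, and the Lgr5 level itself was set by the sort. RNA of at least 270 pg per sample was made into stranded libraries and read as pairs of 100 bases. The study calls the samples biological replicates and counts them as mice, but the legend of its border against centre plots gives more mice per condition than the 3 libraries here. The SI segment of the sorted cells, and whether equal numbers are the same mouse, were not found in its account of these libraries, so p-values measure the spread between these samples. The SI row >3 libraries (low GFP, 3 libraries) and the large intestinal (LI) border and centre libraries (3 each, same genotype, strain, age and treatment) were used beside them.

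Lgr5+ cells at the bottom of the crypt divide, receive Wnt from neighbouring Paneth cells and stroma, and replace one another. Cells displaced upward leave the reach of Wnt, are met by BMP from the villus side, and become absorptive enterocytes or, where Notch is low in them, goblet, Paneth, enteroendocrine or tuft cells. EphB receptors on cells of the crypt bottom and ephrin-B ligands on cells above keep these compartments apart.

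The 3 border libraries held 8312093, 14340229 and 21692974 counted reads for replicates 1, 2 and 3, and the 3 centre libraries 22176729, 20453305 and 23779122, so the thinnest library was border replicate 1. The epithelial genes Epcam and Cdh1 did not pass the test described below. Epcam, the adhesion protein used in the sort, had 15214, 15663 and 16723 normalised counts in centre and 14654, 17123 and 17648 in border cells. Normalised counts are the raw counts of a library divided by 1 size factor, as deposited by the authors. E-cadherin, Cdh1, had 14432 to 15356 in centre and 14932 to 16950 in border cells. The immune list summed to 483 to 575 normalised counts in centre and 587 to 1372 in border libraries, with Gzma and Nkg7 at 0 in all 6 and Cd3e above 0 in 1 library, and Ptprc and Itgam gave the largest differences in pairs 1 and 2. The stromal list summed to 204 to 384 in centre and 313 to 432 in border libraries, with Dcn, Col3a1 and Cdh5 at 0 in all 6, and was higher in border cells in pairs 1 and 2 and lower in pair 3. Vim, an intermediate filament protein of mesenchymal cells, had 0, 15.7 and 0 in centre and 187, 40.2 and 0 in border cells, Pecam1, an endothelial adhesion protein, 12.2, 0 and 0.933 against 23.6, 28.5 and 56.8, and Pdgfrb, a receptor of mesenchymal cells, 31.6, 42.4 and 131 against 123, 80.4 and 141. None of these 3 was called by edgeR's quasi-likelihood test (adjusted p = 0.0879, 0.162 and 0.289), and the part of other cells in the results was not tested.

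Both libraries labelled SI replicate 3 stood apart from replicates 1 and 2. Of 56 genes that in every LI centre and border library were at least 20-fold above the highest of the 4 SI libraries of replicates 1 and 2, the median gene was at 66.6% of its LI level in centre replicate 3 and at 90.3% in border replicate 3, against at most 0.417% in the other 4. Car1, a carbonic anhydrase of the colon surface, had 0, 6.45 and 1668 normalised counts in centre and 0, 14.3 and 22796 in border cells of replicates 1, 2 and 3. Conversely, of 52 genes that were as far above the LI in replicates 1 and 2, the median was at 32.5% of the mean of those replicates in centre replicate 3 and at 10.1% in border replicate 3. Both choices used the LI libraries and SI replicates 1 and 2, and not replicate 3. The low level of the 56 genes and the high level of the 52 genes in replicates 1 and 2 were therefore set by the choice. Over 13057 genes, centre replicate 3 correlated with the LI centre libraries at a Spearman's rho of 0.943 to 0.952 and with the other SI centre libraries at 0.930 and 0.930, and border replicate 3 at 0.935 to 0.937 with LI border and at 0.910 and 0.899 with SI border libraries. These coefficients are across genes, which are not independent. Genes of the SI were present in both as well, since the Paneth cell list summed to 51417 normalised counts in centre and 14152 in border replicate 3, against at most 323 in an LI centre or border library. Whether tissue of both sites was present in them was not tested. They are called the libraries labelled SI replicate 3, and results are given with and without them. The SI row >3 library of replicate 3 stood apart in the same way, with medians of 86.9% for the 56 genes and 6.24% for the 52 genes. In row >3 replicates 1 and 2 the 56 genes were at 0.945% and 1.01%.

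**Figure D1:**
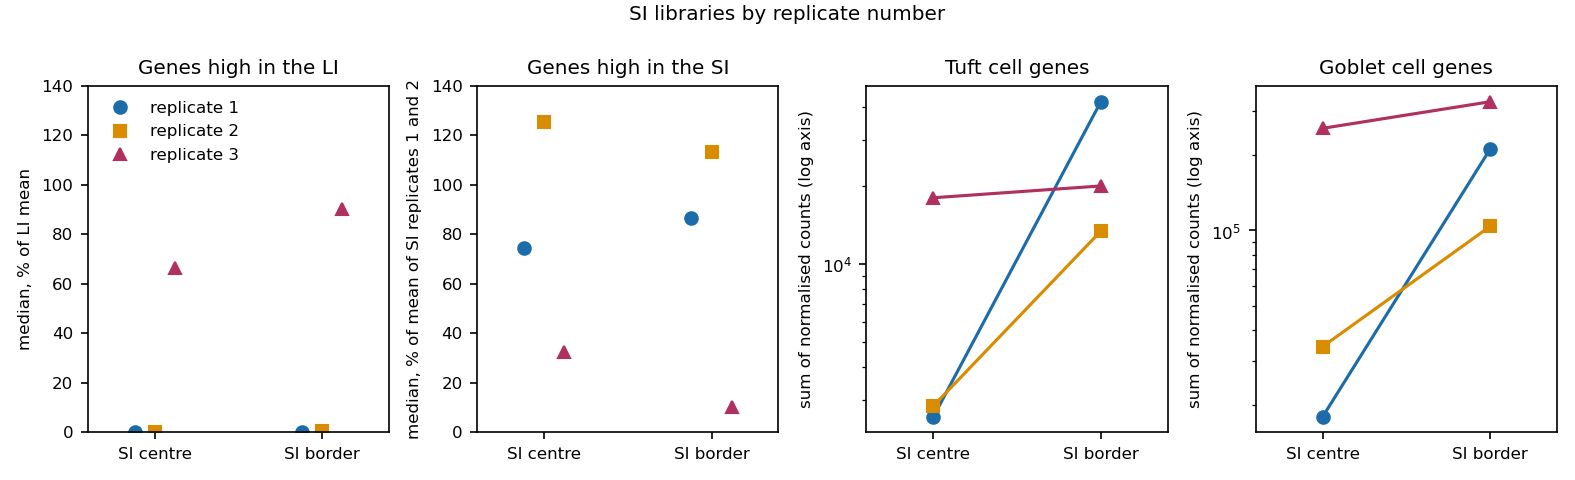
SI centre and border libraries by replicate number (symbols). From left to right: median level of the 56 genes high in the LI, as a percentage of the LI mean; median level of the 52 genes high in the SI, as a percentage of the mean of replicates 1 and 2; summed normalised counts of the tuft and of the goblet cell genes (log axes, lines join libraries of equal number). Replicate 3 lies at 66.6% and 90.3% in the first panel, and its tuft and goblet sums were high already in centre cells.

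Libraries of equal replicate number were compared as pairs. The deviation of each gene from its group mean correlated between centre and border libraries of the same number at 0.247, 0.558 and 0.613. Correlations between unequal numbers are not given here. Replicate 3 stood apart in both groups and moves both group means, so these values do not show that replicates 1 and 2 pair by number. The comparison was defined by pairs, and a replicate block nested in site was part of the fit. With it, edgeR's quasi-likelihood test called 620 of 26717 genes between border and centre cells at a Benjamini-Hochberg adjusted p under 0.05 (2.32%), 415 higher (1.55%) and 205 lower (0.767%) in border cells. Without the replicate block the same test called 3 genes. Higher genes rose by a median of 1.25 on the log2 scale and lower genes fell by a median of 0.80. The border library lay above the centre library in all 3 pairs for 369 of the 415, and below it for 200 of the 205. The genes were called by a test blocked on these same pairs, so these 2 counts only describe them. Without the 2 libraries labelled SI replicate 3, 598 of 26181 genes were called (2.28%), 455 higher (1.74%) and 143 lower (0.546%). Of the 620 genes, 255 were called both ways, 41.1% of the first list and 42.6% of the second, and 614 kept their sign. edgeR's legacy quasi-likelihood fit, which called fewer unchanged low-count genes on simulated data, called 895 genes (3.35%), 558 higher (2.09%) and 337 lower (1.26%), of which 483 were among the 620. The fit with 3 pairs, the fit without replicate 3 and the legacy fit shared 211 genes, 142 higher and 69 lower. Single libraries moved the count of 620 as well, to 28 without border replicate 3, 95 without centre replicate 1, 409 without border replicate 1 and 988 without border replicate 2, and DESeq2 with the replicate block called 1548. The same edgeR test and block fitted on the 6 border and centre libraries alone called 58 genes, and on the 9 SI libraries 31, of which 49 and 31 were among the 620. By the study's own cut-off, an unadjusted p under 0.001 with a change over 2 on the log2 scale either way, 133 genes passed (0.498%), 113 higher (0.423%) and 20 lower (0.0749%). In row >3 cells, 265 of the 415 higher genes were higher still than in border cells in all 3 pairs and 24 were lower in all 3, while 135 of the 205 lower genes were lower still and 13 were higher. These counts share the border libraries with the comparison and are a description. Their pair numbered 3 holds the row >3 library that stood apart, and the share over all genes tested is not given here.

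**Figure D2:**
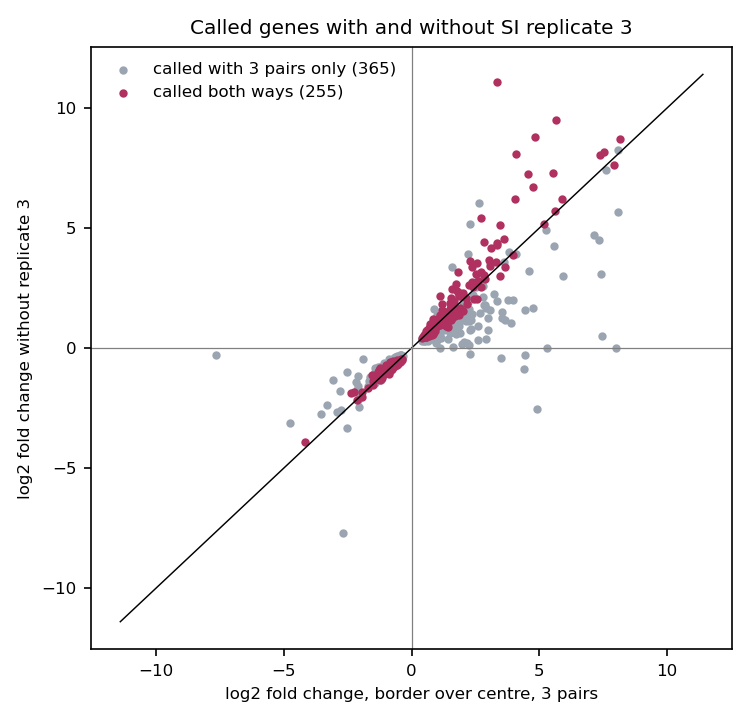
The 620 genes called between SI border and centre cells: log2 fold change from 3 pairs (x) and without the libraries labelled SI replicate 3 (y). The line marks equal values, red points were called both ways (255 genes), and grey points were called with 3 pairs only (365 genes).

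Stem cell genes were lower in border cells. Of the 18 stem cell markers, 8 fell and 0 rose, with a median log2 fold change of -0.91 against 0 over all genes tested. All 18 had a negative value, and without replicate 3, 5 fell and the median was -0.72. The 18 include Lgr5, whose level was set by the sort. Lgr5, the R-spondin receptor whose reporter defined the sort, had 5252, 4191 and 2434 normalised counts in centre and 1610, 2028 and 157 in border cells. It was lower in every pair but not called (log2 fold change -2.08, SE 0.52, adjusted p = 0.083 by edgeR's quasi-likelihood test, 0.00178 by DESeq2), and being set by the gate it only checks the labels. Ascl2, the transcription factor that maintains stem cell fate, had 380, 269 and 212 in centre and 137, 166 and 46.3 in border cells. All border libraries lay below all centre libraries, and the fall was 1.36 on the log2 scale (SE 0.28, adjusted p = 0.0152; without replicate 3 the log2 fold change was -1.07, adjusted p = 0.0436, by edgeR's quasi-likelihood test).

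Soat1, which esterifies cholesterol, had the smallest adjusted p of the list. It went from 3975, 3673 and 2115 normalised counts in centre to 1547, 2319 and 831 in border cells, where only centre replicate 3 came below a border library (log2 fold change -1.10, SE 0.18, adjusted p = 0.0051, and without replicate 3, adjusted p = 0.00291). Rgmb, a BMP co-receptor, went from 3415, 3139 and 1838 to 1565, 2277 and 825 and was called with and without replicate 3 (log2 fold change -0.91 and -0.81). Lrig1, a brake on ErbB receptors, Cdca7, Slc12a2, the basolateral chloride importer of crypt cells, the water channel Aqp4 and Nrn1 also fell with 3 pairs, by log2 fold changes between -1.15 and -0.60. None of these 5 was called without replicate 3 (log2 fold changes between -0.80 and -0.49, adjusted p between 0.0606 and 0.223 by edgeR's quasi-likelihood test). Nrn1 overlaps Fars2, which has more counts, on the opposite strand, so its reads are not assigned with certainty. Smoc2, a matrix protein of stem cells, had 5570, 5302 and 2145 in centre and 2852, 4043 and 308 in border cells, and was called without replicate 3 (log2 fold change -0.71, adjusted p = 0.0331) but not with it (-1.32, adjusted p = 0.126; DESeq2, 0.0139). Olfm4, the marker with the most counts, had 82369, 78758 and 17385 in centre and 24346, 54428 and 1030 in border cells. It was not called by edgeR's quasi-likelihood test (adjusted p = 0.141).

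Of the 16 Wnt target genes, 3 fell and 0 rose (median log2 fold change -0.51; without replicate 3, 2 fell and the median was -0.48). Sp5, a transcription factor that Wnt induces directly, went from 577, 378 and 87.7 normalised counts in centre to 109, 184 and 23.1 in border cells. The border library was the lower one of every pair, and the fall was called with and without replicate 3 (log2 fold change -1.69, SE 0.33, adjusted p = 0.0117, and -1.65, adjusted p = 0.0119, by edgeR's quasi-likelihood test). Rnf43, a ubiquitin ligase that removes Wnt receptors, fell by 0.83 on the log2 scale (SE 0.17, adjusted p = 0.0194) and by 0.60 without replicate 3 (adjusted p = 0.0136). Axin2, another feedback target, had 12806, 13532 and 6724 in centre and 9296, 10536 and 1535 in border cells and was not called (adjusted p = 0.115; without replicate 3, 0.0759). Cd44, with 4676, 4753 and 6741 against 1910, 3765 and 3359, and Ccnd1, a cyclin of G1, with 3424, 3162 and 2126 against 2937, 3252 and 1750, were not called either (adjusted p = 0.1 and 0.724 by edgeR's quasi-likelihood test). DESeq2 with 3 pairs called Axin2 and Cd44 (adjusted p = 0.00206 and 0.00251) and not Ccnd1 (0.786).

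The promoter of Sp5 is shown for the TCF/LEF motif, the site through which Wnt acts on its targets, and those of Alpi and Tnc for motifs described with them below. The sequences are the 250 bases before the RefSeq start site on GRCm38.p6, written 5′ to 3′ on the gene's strand, with the motif in capitals. They lie at chr2:70474673-70474922 (plus strand), chr1:87101607-87101856 (minus strand) and chr4:64047016-64047265 (minus strand).
Sp5: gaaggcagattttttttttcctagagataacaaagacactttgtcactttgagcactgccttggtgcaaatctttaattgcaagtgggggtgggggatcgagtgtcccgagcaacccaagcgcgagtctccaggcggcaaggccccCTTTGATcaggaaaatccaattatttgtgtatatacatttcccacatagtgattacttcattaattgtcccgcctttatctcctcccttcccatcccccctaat
Alpi: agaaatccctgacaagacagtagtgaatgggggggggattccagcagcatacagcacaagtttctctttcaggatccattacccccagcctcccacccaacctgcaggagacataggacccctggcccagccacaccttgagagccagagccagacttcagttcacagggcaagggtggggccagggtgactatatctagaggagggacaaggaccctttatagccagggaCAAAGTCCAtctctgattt
Tnc: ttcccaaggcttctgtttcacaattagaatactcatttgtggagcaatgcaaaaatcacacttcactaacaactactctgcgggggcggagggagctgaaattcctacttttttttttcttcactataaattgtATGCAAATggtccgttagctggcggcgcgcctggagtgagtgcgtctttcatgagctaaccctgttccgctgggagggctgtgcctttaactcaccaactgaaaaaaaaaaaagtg
The letters ATCAAAG, searched on both strands, occur once in the Sp5 window, as their reverse complement, 104 bases before the start site. They occur in 3.21% of 32851 promoter windows of this length and, counted per gene, for 3.08% of 14029 genes tested that have a window. Among called genes with a window they were found for 8 of 153 lower genes (5.23%) and 9 of 314 higher genes (2.87%). The HNF4 motif CAAAGTCCA shares its first 5 letters with the end of the TCF/LEF motif and can overlap it, while the octamer ATGCAAAT does not hold these letters. Matches describe letters in a window, not sites in use.

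Among Eph receptors and ephrins, 1 of 16 genes measured rose and 2 fell, and without replicate 3, 1 rose and 0 fell. Efnb2, the ephrin-B ligand of cells above the stem cell zone, had 186, 189 and 518 normalised counts in centre and 900, 334 and 1917 in border cells. Border replicate 2 lay below centre replicate 3, but within each pair border was higher, and the rise was called with and without replicate 3 (log2 fold change 1.73, SE 0.24, adjusted p = 0.00272, and 1.57, adjusted p = 0.00219, by edgeR's quasi-likelihood test). Its level went on to 1834, 1049 and 2268 in row >3. Ephb3, a receptor of cells at the crypt bottom, had 2275, 2352 and 2000 in centre and 1313, 1997 and 643 in border cells, and its fall (log2 fold change -0.86, adjusted p = 0.0254) was not called without replicate 3 (-0.52, adjusted p = 0.119). Ephb2, with 3895, 3499 and 4253 against 3436, 3966 and 3544, was not called (log2 fold change -0.10, SE 0.10), and neither was Efnb3, at 24.2 to 32.4 against 0 to 16.5. Epha7 had a log2 fold change of -1.64 (adjusted p = 0.0254), and without replicate 3 one of -1.41 that was not called (adjusted p = 0.0732, edgeR's quasi-likelihood test).

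Absorptive genes rose in border cells. Of the 32 absorptive genes, 12 rose and 0 fell, with a median log2 fold change of 1.16. Without replicate 3, 9 rose, 0 fell and the median was 1.01. The summed level of the list was 54276, 43843 and 49534 normalised counts in centre and 71378, 58681 and 90865 in border cells, higher in border in each pair. Fabp1, a fatty acid binding protein of enterocytes, had the smallest adjusted p of all named genes. It had 39.7, 15.7 and 115 normalised counts in centre and 937, 238 and 602 in border cells. The groups did not overlap, as for 8.75% of all genes tested and as the rule for naming top genes required. The log2 fold change was 3.35 (SE 0.32, adjusted p = 2.27e-05) and 4.28 without replicate 3 (adjusted p = 1.2e-06, edgeR's quasi-likelihood test). In row >3 cells it was lower again, at 335, 172 and 269.

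Alpi, the intestinal alkaline phosphatase of the brush border, went from 108, 25.8 and 85.8 to 335, 117 and 494 and on to 805, 125 and 596 in row >3. The groups did not overlap, as the same rule required, and the log2 fold change was 2.18 (SE 0.30, adjusted p = 0.00104; without replicate 3, 1.84, adjusted p = 0.0136, edgeR's quasi-likelihood test). Its promoter holds the HNF4 motif CAAAGTCCA, bound by a factor of enterocyte genes, 19 bases before the start site. The motif occurs in 0.384% of all windows and for 0.499% of genes tested, in the windows of 4 of the 314 higher genes (1.27%) and of 1 of the 153 lower genes (0.654%).

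Cdhr2, a protocadherin that links microvilli, rose from 1674, 1447 and 3408 to 4201, 2527 and 6573 (log2 fold change 1.01, SE 0.13, adjusted p = 0.000569; without replicate 3, 1.03, adjusted p = 0.000332, edgeR's quasi-likelihood test). Its partner Cdhr5 was called without replicate 3 (1.89, adjusted p = 5.24e-06) and not with it (1.48, adjusted p = 0.0506) by that test, while DESeq2 called it with 3 pairs (adjusted p = 0.00041). Myo1a, the brush border myosin, and Fabp2, a second fatty acid binding protein, rose with and without replicate 3, with log2 fold changes of 1.01 and 0.96 for Myo1a and of 1.09 and 1.07 for Fabp2. The lipoprotein genes Apoa1 and Apoa4 rose likewise, with adjusted p of 0.0126 and 0.00829 with 3 pairs and of 0.0378 and 0.00342 without replicate 3. Apoa4 had 581, 202 and 310 in centre, 1462, 765 and 595 in border and 759, 579 and 303 in row >3 cells. A further 4, the chylomicron assembly protein Mttp, the amino acid transporter Slc6a19, the actin bundler Vil1 and the triglyceride synthase Dgat2, had log2 fold changes between 0.51 and 1.81. They were not called without replicate 3, with log2 fold changes between 0.29 and 1.16. Vil1 and Mttp overlap Usp37 and Trmt10a on the opposite strand. Krt20, a keratin of cells that have stopped dividing, had 835, 462 and 755 in centre and 3145, 1649 and 5913 in border cells without overlap, but was not called by edgeR's quasi-likelihood test (log2 fold change 2.33, SE 0.51, adjusted p = 0.0611), while DESeq2 called it (0.000339).

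Of the 20 enterocyte transcription factors, 3 rose and 0 fell (median log2 fold change 0.29), and without replicate 3, 3 rose and 0 fell (0.22). Klf4, which acts against proliferation, rose from 636, 853 and 1790 to 1820, 1236 and 4046 (log2 fold change 1.08, adjusted p = 0.0164; without replicate 3, 0.98, adjusted p = 0.0129, edgeR's quasi-likelihood test). Isx, a homeobox factor that represses vitamin A uptake, rose by 0.51 (adjusted p = 0.0496) and by 0.49 without replicate 3 (adjusted p = 0.034). Creb3l3, a factor of lipoprotein genes, rose by 1.50 (adjusted p = 0.0143), and its value without replicate 3, 1.29, was not called (adjusted p = 0.124, edgeR's quasi-likelihood test).

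Cdkn1a and Mxd1, which were named for their small adjusted p, both have known roles in restraining the cell cycle. Cdkn1a, which encodes the kinase inhibitor p21, had 83.5, 62.6 and 102 normalised counts in centre, 477, 181 and 922 in border and 1078, 645 and 1235 in row >3 cells. Centre, border and row >3 followed in that order within each number, and border against centre gave a log2 fold change of 2.58 (SE 0.28, adjusted p = 0.000247; without replicate 3, 2.06, adjusted p = 0.00146, edgeR's quasi-likelihood test). Mxd1, an antagonist of MYC, rose from 487, 273 and 472 to 1287, 569 and 1787 (log2 fold change 1.49, adjusted p = 0.00134; without replicate 3, 1.23, adjusted p = 0.0085). Of 24 S phase genes 1 fell, of 25 G2/M genes 2 fell, and 0 rose in either list, with medians of -0.32 and -0.29 (without replicate 3, -0.27 and -0.41). The ribonucleotide reductase subunit Rrm1 and the spindle proteins Kif11 and Nusap1 fell by 0.47, 0.57 and 0.78 on the log2 scale, and of these Kif11 and Nusap1 were called without replicate 3 too (adjusted p = 0.011 and 0.00476), when 5 G2/M genes fell.

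**Figure D3:**
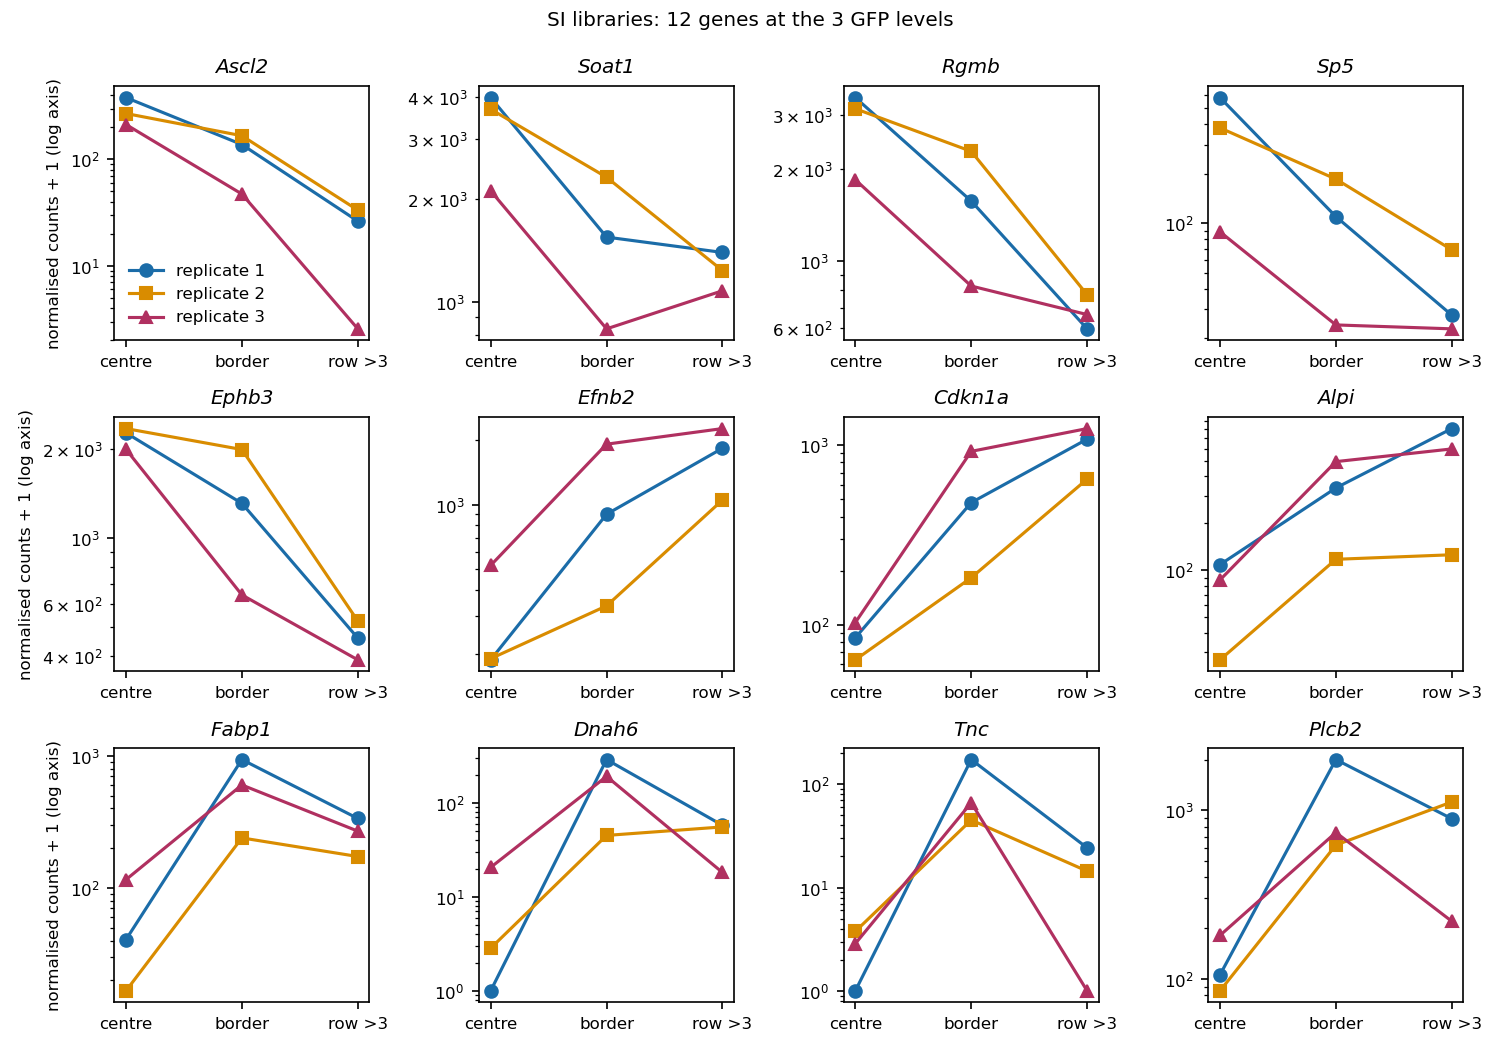
Normalised counts (plus 1, log axes) of 12 genes in the 9 SI libraries at the 3 GFP levels; lines join libraries of equal replicate number. Ascl2, Soat1, Rgmb, Sp5 and Ephb3 fell from centre to border, Efnb2, Cdkn1a and Alpi rose and rose further in row >3, and Fabp1 and Tnc were highest in border cells in all 3 replicates, as were Dnah6 and Plcb2 in replicates 1 and 3.

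Tuft cell genes rose steeply in pairs 1 and 2 and hardly in pair 3. Tuft cells are rare chemosensory cells that use a taste-like signalling cascade. The summed level of the 26 genes was 2582, 2841 and 17971 normalised counts in centre and 42086, 13367 and 19954 in border cells, a 16.3-, 4.70- and 1.11-fold difference. The sum was thus higher in centre replicate 3 than in border replicate 2, but the genes of the list differed in this. Dclk1 and Trpm5, with many counts, had 4136 against 2206 and 2201 against 1668, whereas Plcb2 and Pou2f3 had 180 against 622 and 316 against 355. With 3 pairs 3 of 26 genes rose and 0 fell (median log2 fold change 1.74), and without replicate 3, 21 rose and 0 fell (median 3.99, or 3.81 with genes at 0 counts in a group set at their bound against 3 counts over that group). In these bulk samples more cells of a type and more RNA per cell cannot be told apart.

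Plcb2, a phospholipase of the taste cascade, had 105, 83.8 and 180 in centre and 2005, 622 and 738 in border cells. The groups did not overlap (log2 fold change 3.04, SE 0.58, adjusted p = 0.0331; without replicate 3, 3.65, adjusted p = 0.000899, edgeR's quasi-likelihood test). Alox5ap, of leukotriene synthesis, and the calcium channel Itpr2 were also called both ways, at 3.45 and 1.07 with 3 pairs. Chosen after their values were seen, Pou2f3, the transcription factor that tuft cells require, had 131, 91.2 and 316 in centre and 1001, 355 and 519 in border cells, and Spib, another transcription factor of tuft cells, 50.2, 38.7 and 330 against 1060, 356 and 290. By edgeR's quasi-likelihood test both were called without replicate 3 (log2 fold changes 2.47 and 3.86, adjusted p = 0.000114 and 1.43e-05) and not with it (adjusted p = 0.118 and 0.354), while DESeq2 called Pou2f3 with 3 pairs (adjusted p = 0.00642). Dclk1, the common tuft cell marker, had 167, 215 and 4136 in centre and 7036, 2206 and 3528 in border cells (adjusted p = 0.552 with 3 pairs and 0.00719 without replicate 3). Ptprc, the leukocyte antigen CD45, had 44.6, 21.2 and 256 in centre and 555, 203 and 389 in border cells, and only its border libraries came in the order of the tuft cell sum.

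Several of the top genes outside the tuft cell list were also higher in border than in row >3 cells in at least 2 of 3 replicates. Tnc, a matrix glycoprotein, had 0, 2.76 and 1.87 normalised counts in centre, 172, 44.1 and 65.2 in border and 23.3, 13.4 and 0 in row >3 cells. Border stood above both neighbours in each replicate (border against centre, log2 fold change 5.88, SE 0.83, adjusted p = 0.000569; without replicate 3, 0.000698, edgeR's quasi-likelihood test), and Tnc was called in all 21 fits run, the one without the replicate block included. Its promoter holds the octamer ATGCAAAT, a motif of POU factors, 116 bases before the start site, with the letters found in 1.6% of all windows, for 1.68% of genes tested, and in the windows of 13 of 314 higher genes (4.14%) and of 2 of 153 lower genes (1.31%).

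Dnah6, an axonemal dynein, had 0, 1.84 and 19.6 in centre, 288, 44.1 and 190 in border and 56.8, 54.5 and 17.2 in row >3 cells. It was called in 20 of 21 fits (with 3 pairs, adjusted p = 0.000679, edgeR's quasi-likelihood test), whereas the other 15 dynein and cilia genes measured included 0 calls. Of these, Dnah5 had 45.4, 41.4 and 326 in centre and 1105, 180 and 409 in border cells (without replicate 3, log2 fold change 3.65, adjusted p = 0.0772, same test). Of the 16 genes, 6 had a positive value with 3 pairs and 11 without replicate 3. With genes at 0 counts in a group set at their bound, the median log2 fold change of that list was -0.01 with 3 pairs and 0.02 without replicate 3. Plek, a protein kinase C substrate of blood cells, had 4.86, 0 and 2.8 in centre and 184, 25.9 and 88.4 in border cells, Kcnj16, a potassium channel, 0, 0 and 5.6 against 116, 60.9 and 103, and the receptor Gprc5c 36.5, 4.6 and 26.1 against 361, 131 and 113. All 3 were called with and without replicate 3 (with 3 pairs, adjusted p = 0.000332, 0.00396 and 0.00102, edgeR's quasi-likelihood test). DESeq2 with 3 pairs called Plek and Gprc5c (adjusted p = 9.02e-07 and 5.16e-05) and not Kcnj16 (0.435). Slc4a8, a sodium-coupled bicarbonate transporter, rose likewise, from 34, 22.1 and 23.3 to 423, 54.4 and 158. For Tnc, Dnah6, Plek, Kcnj16, Slc4a8 and Fabp1 the order of the border libraries, replicate 1, then 3, then 2, was that of the tuft cell sum, while for Gprc5c it was replicate 1, then 2, then 3. The tuft cell sum was higher in centre replicate 3 (17971) than in border replicate 2 (13367). Each of these genes, Gprc5c included, was lower in centre replicate 3 than in border replicate 2, from 1.87 against 44.1 for Tnc to 115 against 238 for Fabp1. The rule for naming top genes took only genes without overlap between the groups, so this was fixed by the choice. It does not set these genes apart from tuft cell genes, of which Plcb2 had 180 against 622. The first order was found for 55 of the 415 higher genes (13.3%) and for 6.13% of all genes tested, and the genes named here were picked with their values known. Whether these genes come from tuft cells was not tested.

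Other secretory lineages differed by pair. The goblet cell list summed to 17947, 34252 and 256691 normalised counts in centre and 211559, 103841 and 327988 in border cells, so that centre replicate 3 was above border replicates 1 and 2. With 3 pairs 0 of 16 genes were called by edgeR's quasi-likelihood test (median log2 fold change 1.30, 7 at an unadjusted p under 0.05, 5 called by DESeq2), and without replicate 3, 5 rose and 0 fell (median 1.84). Muc2, the main mucin, had 7468, 15661 and 142535 against 99507, 49680 and 159922, and Clca1, a secreted goblet cell protein, 425, 399 and 4046 against 8708, 3122 and 10186, and neither was called. Spdef, the goblet cell transcription factor, was called without replicate 3 (log2 fold change 2.69, adjusted p = 0.0141) and not with it (adjusted p = 0.332). The 16 Paneth cell genes showed 0 calls with and without replicate 3 by edgeR's quasi-likelihood test, with 0 at an unadjusted p under 0.05 and 0 called by DESeq2 with 3 pairs. Their sum was 46664, 220185 and 51417 in centre and 92313, 163165 and 14152 in border cells, higher in border in pair 1 and lower in pairs 2 and 3, and the median log2 fold change turned from -0.36 with 3 pairs to 0.12 without replicate 3. Paneth cell defensins are near-identical copies whose reads are not assigned with certainty. Of 25 enteroendocrine genes, 1 rose and 0 fell with 3 pairs, and the same counts were found without replicate 3. Of the 25, 21 had a positive value (median log2 fold change 1.29, without replicate 3, 1.12), 12 had an unadjusted p below 0.05, and 5 were called by DESeq2. Their sum was 1290, 6700 and 646 in centre and 7832, 7161 and 1307 in border cells, higher in border in each pair, by 6.07-, 1.07- and 2.02-fold. Of 16 secretory transcription factors 0 rose and Sox4 fell (log2 fold change -0.67, adjusted p = 0.0499), and without replicate 3, 6 rose and 0 fell.

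**Figure D4:**
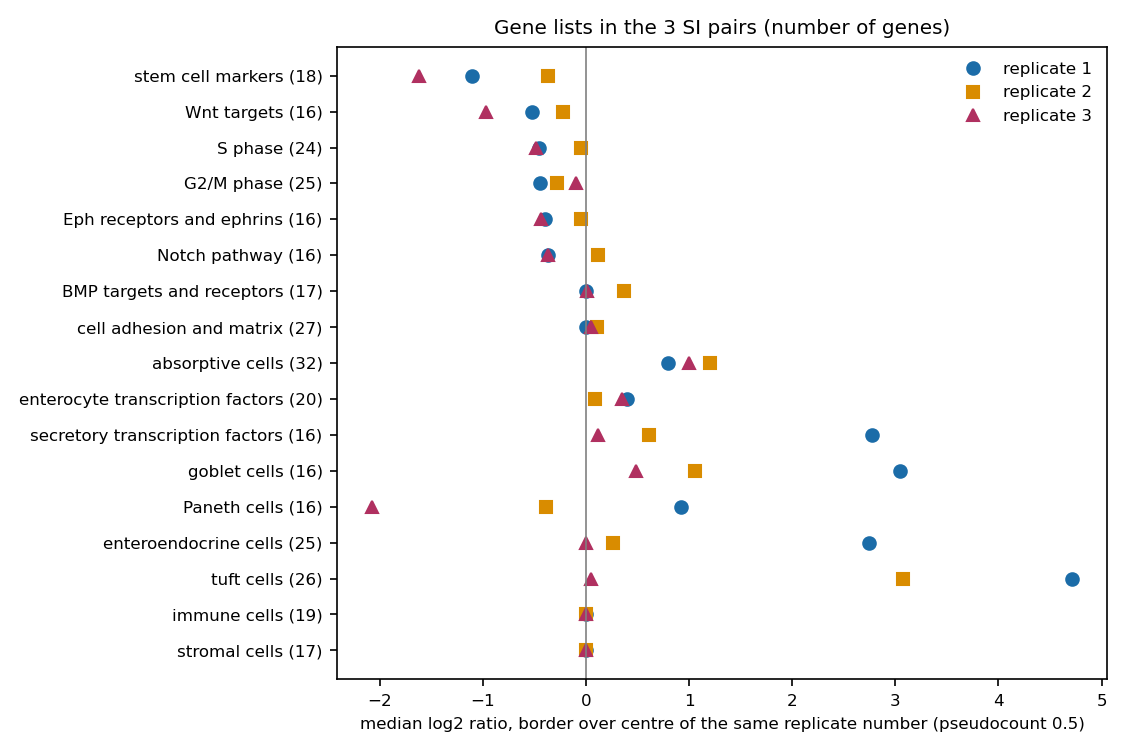
Median log2 ratio of border over centre in each SI pair for 17 gene lists (number of genes measured in brackets; symbols are replicate numbers; ratios of normalised counts plus 0.5). Stem cell markers and Wnt targets lie below 0 and absorptive genes above 0 in all 3 pairs, whereas tuft cell genes lie at 4.71 and 3.07 in pairs 1 and 2 and at 0.04 in pair 3, and Paneth cell genes have both signs.

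Of 16 Notch pathway genes, 2 rose and 0 fell with 3 pairs, and 2 rose and 1 fell without replicate 3. Dll1, a Notch ligand of secretory precursors, had 430, 690 and 629 normalised counts in centre and 1195, 1253 and 1001 in border cells without overlap (log2 fold change 0.97, SE 0.20, adjusted p = 0.0149; without replicate 3, 1.11, adjusted p = 0.00161, edgeR's quasi-likelihood test). The other, the target Hes5, had at most 38.9, rested on border replicates 2 and 3, and was not called without replicate 3 (adjusted p = 0.323). Without replicate 3 Dll4, another ligand, rose (log2 fold change 1.05, adjusted p = 0.00872) and the Notch target Hes1 fell (-0.76, adjusted p = 0.0424). With 3 pairs their adjusted p was 0.0613 and 0.0533, and the legacy fit called both (0.00298 and 0.0102). Of 17 BMP genes 1 rose (2 without replicate 3), the inhibitory Smad7 (log2 fold change 0.81, adjusted p = 0.0438). Without replicate 3 Smad7 lost the call at nearly the same size (0.75, adjusted p = 0.143, edgeR's quasi-likelihood test). The ligand Bmp2 was called without replicate 3 (adjusted p = 0.00809) and by DESeq2 with 3 pairs (0.0109) but not by edgeR's quasi-likelihood test with 3 pairs (0.109), with 30, 48.8 and 116 in centre and 368, 123 and 241 in border cells. Of 27 adhesion and matrix genes 3 rose (also 3 without replicate 3): Tnc, the laminin subunit Lama3 (2.04, adjusted p = 0.00655; without replicate 3, 0.194) and the hemidesmosome integrin Itgb4 (0.56, adjusted p = 0.0316; without replicate 3, 0.00865). Of 9 epithelial identity genes 2 rose (3 without replicate 3), the keratin Krt19, from 7372 to 11485 in centre to 10856 to 26311 in border cells, and Vil1. Immediate-early (15), heat shock (8), immune (19) and stromal (17) genes showed 0 calls with 3 pairs by edgeR's quasi-likelihood test. At an unadjusted p under 0.05 there were 4, 2, 1 and 3, and DESeq2 called 2, 0, 1 and 2. Without replicate 3, edgeR's quasi-likelihood test called 1 immune gene higher, Ptprc (log2 fold change 3.40, adjusted p = 0.000627), and 1 immediate-early gene lower, the phosphatase Dusp1 (-0.94, adjusted p = 0.007), and 0 heat shock and 0 stromal genes.

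Among the other genes with the smallest adjusted p, Rnf152, a lysosomal ubiquitin ligase, rose from 196, 134 and 296 to 408, 411 and 1281 (log2 fold change 1.68, adjusted p = 0.000332; without replicate 3, 1.33, adjusted p = 0.00384, edgeR's quasi-likelihood test). The transcription factor Zbtb7b, the scaffold Slc9a3r1 of the brush border and the kinesin Kifc2 rose as well, by 0.88, 0.83 and 2.02. Of these Kifc2, which overlaps Cyhr1, which has more counts, on the other strand, was not called without replicate 3 (log2 fold change 1.48, adjusted p = 0.0562, edgeR's quasi-likelihood test). Tmem151a was at 0 in all centre libraries and at 82.6, 1.3 and 29.5 in border cells (adjusted p = 0.0346; without replicate 3, 0.105).

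Up to 15 lower genes were chosen by the same rule, which took only genes without overlap between the groups. Clca3a1, of the chloride channel accessory family, went from 1036, 991 and 660 normalised counts in centre to 560, 621 and 276 in border cells without overlap (log2 fold change -0.93, SE 0.18, adjusted p = 0.0119, and without replicate 3, adjusted p = 0.0305, edgeR's quasi-likelihood test). Cdo1, the cysteine dioxygenase, had 969, 982 and 620 in centre and 453, 573 and 311 in border cells, without overlap (log2 fold change -0.95, SE 0.16, adjusted p = 0.00486; without replicate 3, 0.00391, edgeR's quasi-likelihood test). Ccdc3, a secreted protein, went from 596, 576 and 318 to 191, 268 and 85.2 (log2 fold change -1.51), and the potassium channel subunit Kcnq1 from 4838, 4490 and 3565 to 2857, 3474 and 1644 (-0.76). Picalm, a clathrin adaptor, and Tns3, a tensin of focal adhesions, fell by 0.78 and 0.67, and both were called with and without replicate 3 (without it, adjusted p = 0.0024 and 0.00784). Trim59, Shisa2, an antagonist of Wnt and FGF receptors, Proser3 and the kinesin Kif12 were called both ways too, by falls of 0.97 to 1.22 with 3 pairs. The glutamate transporter Slc1a2, Zbtb38, the semaphorin receptor Plxnb1, the nuclear receptor Nr2e3 and the myosin Myo15 fell by 0.73 to 3.30 and were not called without replicate 3 (adjusted p between 0.0618 and 0.127). Klhl13, an adaptor of ubiquitin ligases, had 65.6, 60.8 and 15.9 in centre and 2.36, 5.18 and 0 in border cells (adjusted p = 0.0391; without replicate 3, 0.0246).

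Some calls rested on the libraries labelled SI replicate 3. Of the 56 genes high in the LI, 13 were among the 415 that rose, which are 1.55% of all genes tested. Among those that fell, 0.767% of all genes tested, there were 0. These 56 genes were chosen as low in SI replicates 1 and 2, so this count alone does not show what the calls rested on. Car1 (adjusted p = 0.00865) and the water channel Aqp8, with 56.9 in centre and 647 in border replicate 3 and 0 in the other 4 libraries, were called with 3 pairs and not without replicate 3 (adjusted p = 1 and 1, edgeR's quasi-likelihood test). Muc4, a membrane mucin, was below its centre level in border cells of every pair, and lost the call without replicate 3 at nearly the same size (log2 fold change -0.44 with 3 pairs, adjusted p = 0.0496, and -0.39 without, adjusted p = 0.159). The ileal bile acid transporter Slc10a2 had 29.2, 2.76 and 0 in centre and 26, 42.8 and 250 in border cells, and its call (adjusted p = 0.0214) was lost without replicate 3 (0.57).

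The same contrast in the LI, fitted together, gave 0 calls in edgeR's quasi-likelihood test, with 622 at an unadjusted p under 0.05 against 4064 in the SI. A test of SI against LI for the contrast itself was made: 0 genes were called with all libraries (1406 at an unadjusted p under 0.05; DESeq2 called 143), and 109 without the libraries labelled SI replicate 3 (0.416%), 107 with the higher value in the SI (0.409%) and 2 with the lower (0.00764%). Among named genes these included Spib (difference of log2 fold changes 3.61, adjusted p = 0.00158), Cdhr5 (1.59, adjusted p = 0.00138), Ptgs1, of prostaglandin synthesis in tuft cells (4.24, adjusted p = 0.00229), Pou2f3 (2.15, adjusted p = 0.0133), Plcb2 (3.61, adjusted p = 0.0223), Ptprc (3.08, adjusted p = 0.0282), Myo1a (0.79, adjusted p = 0.0404), Fabp1 (3.43, adjusted p = 0.047) and Itpr2 (1.23, adjusted p = 0.048). With all libraries the adjusted p of these 9 lay between 0.68 and 1. For the stem cell and Wnt genes Ascl2, Rgmb, Soat1 and Sp5 the difference between the sites was not called either way. Their LI values were all negative, at -0.36, -0.35, -0.29 and -0.64, without an LI call.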

How the data were processed

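RNA of 18 libraries in 6 groups was measured by RNA-seq. The authors removed adapters with Skewer, aligned to mm10 and counted per gene with STAR, and deposited raw counts (unit: count) of 43346 genes. The submitters' processing notes name bcl2fastq and DESeq2. A second deposited table holds each count divided by 1 DESeq2 size factor per library (unit: signal; called normalised counts here). The annotation release, and whether counting used strand, is not given in the sources used here. All columns were mapped to samples.

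Raw counts were tested with edgeR 4.0.16 in R 4.3.3: TMM factors, genes with a mean count above 0 (26717), 1 robust quasi-likelihood fit of the 6 groups with a replicate block nested in site (8 residual degrees of freedom), and Benjamini-Hochberg adjustment over all genes, at 0.05. Equal numbers were treated as pairs because the comparison was defined so, and were not known to share an animal. Every within-pair correlation of deviations was over 0.1. SE is the log2 fold change divided by the square root of F. On simulated counts, this fit called more unchanged low-count genes than its threshold aims at, and the legacy fit fewer, so the gene counts of both are given. The legacy fit called 483 of the 620 genes. Among the genes it did not call were Apoa1, Krt19, Mttp, Slc6a19, Hes5 and Epha7 (adjusted p = 0.0799, 0.0737, 0.138, 0.111, 0.254 and 0.0996, edgeR's legacy quasi-likelihood test). Pair ratios use a pseudocount of 0.5.

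Named genes were those of the study's account of these cells, up to 15 per direction with the smallest adjusted p (called, at least 20 normalised counts in the higher group, no overlap between groups, same sign without replicate 3), called or most abundant genes of 23 lists (428 of 436 listed entries matched), and 7 from earlier work on these data, which are Dnah6, Tnc, Fabp1, Plcb2, Krt20, Klhl13 and Tmem151a. Pou2f3, Spib, Ptgs1, Spdef, Ptprc, Cdhr5, Bmp2, Vim, Pecam1, Pdgfrb, Dusp1, Dll4 and Hes1 were added after their values were seen. Some genes that these rules chose are not reported here. The members and lists were chosen with earlier results of these data known. Alternatives were DESeq2 1.42.0, no replicate block, fits on 6 or 9 SI libraries, RLE factors, library size only, filterByExpr, no filter, the legacy fit, other thresholds and each library or SI replicate left out. Promoter sequences are from RefSeq (GRCm38.p6), and 42462 gene identifiers were found in GENCODE M21. For 72 genes tested whose file symbol belongs to another gene there, the GENCODE name of the gene identifier was used. Figures were drawn with matplotlib 3.10.9.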

Additional observations from a re-analysis of the deposited data

How the results depend on the processing

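The count of 620 genes depended on the fit. It was 3 without the replicate block, 58 and 31 for edgeR with the replicate block on the 6 centre and border or the 9 SI libraries, 1548 with DESeq2 and the replicate block (564 of the 620 among them), 939 with filterByExpr, 394 with no filter, and 133 at an unadjusted p under 0.001 with a log2 fold change above 2 or below -2. RLE factors, library size only, DESeq2 on the 6 libraries and the legacy fit gave 607, 614, 598 and 895. With 1 centre or border library left out it ranged from 28 (without border replicate 3) to 988 (without border replicate 2), with 95 without centre replicate 1 and 409 without border replicate 1. Without the whole of SI replicate 1, 2 or 3 it was 184, 821 and 598, and without replicate 3 and with no replicate block 252. In 15 of 20 alternatives all 620 genes had the same sign. The cause of these differences was not tested. The difference between the sites, 0 genes, became 143 with DESeq2 and the replicate block, 14 with the legacy fit, added after seeing the data, and between 0 and 71 with 1 library left out (71 without SI centre replicate 3, 3 without SI border replicate 2), and 109 without SI replicate 3. The 49 calls among list genes became 3 without the replicate block and between 6 (without border replicate 3) and 67 with 1 library left out, with 13 without centre replicate 1, and 68 without SI replicate 3. Fitted values of Epcam turned sign (-0.0247 to 0.158 with 1 library left out, -0.00743 without SI replicate 2), not called there. Aqp8 is at 0 in the 4 libraries left without SI replicate 3, so its fitted values there (-0.40, and 0 with no replicate block as well) carry no direction, and it reached 3.52 with 1 library left out. The median of the Paneth cell list went from -0.36 to 0.12 without SI replicate 3. Genes near 0 counts in centre cells have the least certain fold changes, and border replicate 1 has the fewest reads.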
